A study of Rattus norvegicus with 13 samples.

Results

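The BCL2 family of apoptosis regulators was followed in the thyroid of 13 male Wistar rats with 10 genes, 3 anti-apoptotic (Bcl2, Bcl2l1 and Mcl1) and 7 pro-apoptotic (Bax, Bak1, Bad, Bid, Bbc3, Pmaip1 and Bcl2l11). The members were chosen by gene name, and every probe with one of these names was kept, which gave 19 of the 45598 gene probes on the array, 7 for anti-apoptotic and 12 for pro-apoptotic genes. The dams of the KI-treated group had received potassium iodide (KI) by gavage at 1 mg/kg/day for 8 days from gestational day 9, the treatment ending on day 16 according to the methods and on day 17 according to the introduction. The dams of the control group received saline in the same way. The pups themselves were not dosed, and their thyroids were collected 30 days after weaning. There were 6 KI-treated and 7 control arrays, each taken as 1 rat. The litters are not named in the sources used here, so littermates could not be taken into account and p-values measure only the spread between these samples.

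Proteins of the BCL2 family decide whether the outer membrane of the mitochondrion stays intact. Bax and Bak1 form the pores through which cytochrome c leaves, Bcl2, Bcl2l1 (Bcl-xL) and Mcl1 hold them back, and the BH3-only proteins Bad, Bid, Bbc3 (Puma), Pmaip1 (Noxa) and Bcl2l11 (Bim) act upstream, by binding the anti-apoptotic members or by activating the pore formers. Thyroid follicular cells divide slowly and are long-lived, and an excess of iodide is known to be toxic to them in culture. In a piece of tissue, fewer cells of a type and less RNA per cell cannot be told apart.

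Levels are given as log2 of the processed spot signal relative to that array's own 75th percentile, so that 0 is a fairly bright probe. A level is compared between rats and never between probes. Because each result depends on where its probe binds, the first 30 of the 60 bases are shown for the probes the results turn on, as read from the array files, 5′ to 3′. Capitals in the Bcl2 line mark an ATTTA word, the core of AU-rich elements. Capitals in the Bcl2l11 line mark the 24 bases that its dim probe shares with the end of a second dim probe of the same gene.
Bcl2: aggcaaatggtcaaatcagctATTTActgc
Bcl2l1: atgtctcagagcaaccgggagctggtggtt
Mcl1, brighter probe: ccatggaggacttctagaatgaatgaaaag
Mcl1, dimmer probe: tagcagaaagtatcacagacgttcttgtaa
Bax, probe ending at the stop codon: accatctttgtggctggagtcctcactgcc
Bax, probe further downstream: aacggggaaaggcatttttcttacttttgt
Bid: cagctctggcatccatgccacgtaccttgg
Bcl2l11, dim probe: CAAATGGTTATCTTACAACTGTTAcgattc

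In the rn4 coordinates of the array design, the Bcl2 probe lies at chr13:12730740-12730799 on the minus strand. It starts at base 1115 of its transcript, has a GC content of 28.3% and holds ATTTA 2 times on the strand shown, a word found in 7.79% of all gene probes of this length. The tested Bcl2l1 probe (chr3:143178503-143178562, minus strand) begins at the start codon. The Bax probes (chr1:95933023-95933082 and chr1:95932895-95932954, both minus strand) stand next to each other at the end of the coding sequence and behind it. The Mcl1 probes start at bases 876 and 1291 of the same transcript and were placed by the design on a part of chromosome 2 that is not anchored. The Bid probe lies at chr4:157296412-157296471 on the minus strand and the dim Bcl2l11 probe at chr3:115722642-115722701 on the plus strand. No annotation of this build was used here, so exons and untranslated regions were not assigned. For Bcl2l1, a pair of untested probes has the same 60-base sequence and is not independent. The transcript accession led to the same current symbol for 17 of the 19 probes. Those without a match were the second brightest Bad probe and the dim Bcl2l11 probe shown above.

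Of the 19 probes, 14 were well above background on at least 6 arrays and were tested, covering 9 of the 10 genes. Pmaip1 was well above background on 0 arrays and has no measured difference. No probe of the family passed an adjusted p of 0.05 in limma, and neither did any of the 25717 probes tested (0%). At an unadjusted p below 0.05, 3 of the 14 probes were called, Bcl2 lower and one probe each of Mcl1 and Bid higher in the KI-treated group. Over all tested probes 12.7% passed this rule, 5.71% as higher and 7.01% as lower, so the count in the family is close to the background. The Bid probe passed the filter with 4 KI-treated and 2 control arrays well above background, mainly through the group where it was higher. The median difference of the 14 probes was -0.07, against -0.08 for all tested probes, and 9 of the 14 differences were smaller than their standard error.

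**Figure D1:**
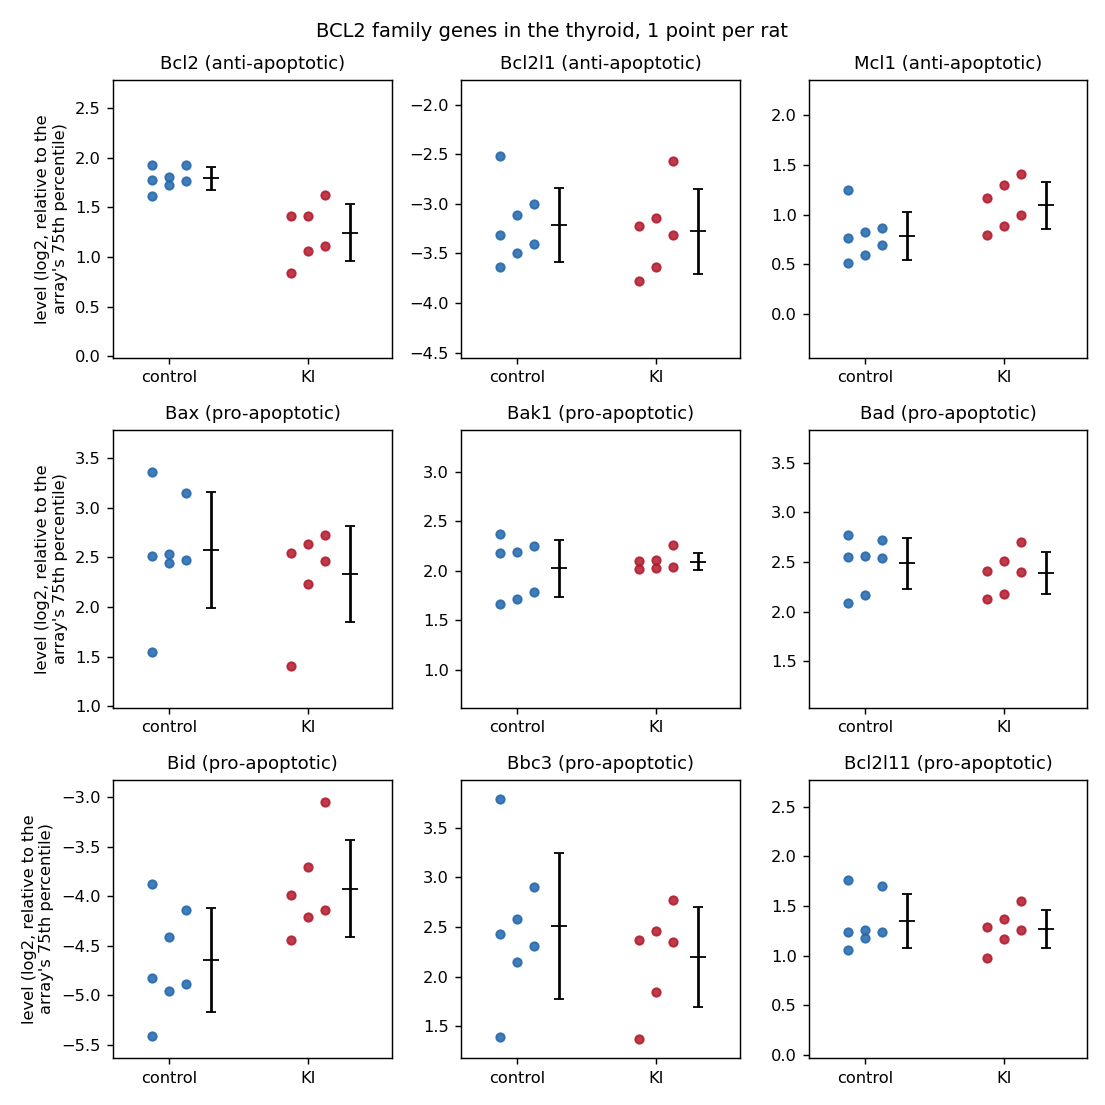
Level of the brightest tested probe of each of 9 BCL2 family genes (log2, relative to the array's 75th percentile), 1 point per rat, control group in blue (n = 7) and KI-treated group in red (n = 6). Bars are mean ± SD. The groups are nearly separate for Bcl2 and overlap for the other genes.

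Control 4 and control 6 stood apart from the rest. The 75th percentile of signal was 10.54 (log2) on control 4 and 10.29 on control 6, the lowest of the 13 arrays. On both, 3895 probes lay above and 2373 below every other array by more than 0.2. In 3955 genes with several probes, the median gap between the brightest and the dimmest probe, centred over the arrays, was 0.38 on control 4 and 0.32 on control 6, against -0.13 to 0.06 on the others. Many results are therefore given also without these arrays, a choice made after the data had been seen. Without them 9.38% of the tested probes and 1 of the 14 family probes, Bcl2, passed an unadjusted p of 0.05. All 8 follicular markers of the thyroid were measured above the filter. Their mean level was 4.98 to 5.25 in the KI-treated group and 4.89 to 5.35 in controls. Another scaling changes how many of all probes are called in each direction: the 3271 unadjusted calls were 1469 higher and 1802 lower, but 1789 and 1109 when the percentile was taken over all spots, 1823 and 1432 after quantile normalisation, 1166 and 3427 after normexp background correction with percentile scaling, 1885 and 1402 after normexp with quantile normalisation, and 1886 and 1359 in the deposited log2 values.

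Bcl2, the founding anti-apoptotic member, had a lower mean level after KI treatment of the dams. The study lists this gene among those it calls differentially expressed in the thyroid. Bcl2 was chosen with the study's result on these data known, and its p-values are not an independent test. Its level was 1.06, 1.62, 1.11, 0.84, 1.41 and 1.41 in KI-treated rats 1 to 6. In control rats 1 to 7 it was 1.76, 1.61, 1.77, 1.72, 1.93, 1.81 and 1.93. All 6 KI-treated rats lay below the control median of 1.77, and the groups touched only where the highest KI-treated rat met the lowest control. Means were 1.24 ± 0.29 (SD, n = 6) and 1.79 ± 0.12 (SD, n = 7). The difference was -0.55 ± 0.13 (log2, SE), that is 0.684 times the control level. An exact two-sided permutation test over the 1716 splits of the arrays gave p = 0.00117. Over all tested probes limma gave an adjusted p of 0.342. An exact p this small was reached by 87 tested probes (0.339%), and Bcl2 ranked 41st by limma. Without control 4 and control 6 the difference was -0.56 ± 0.14.

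The Bcl2 level was lower in KI-treated rats on each slide and in each scan session that held both groups. On the 5 slides, with 1 or 2 rats per group on each, the differences were -0.10, -0.70, -0.37, -0.35 and -1.01. Within the 3 scan sessions, with 1 to 3 rats per group, the differences were -0.40, -0.39 and -1.04. The sessions hold the same slides, so these are not separate comparisons. With slide as a block the difference was -0.53 (exact permutation within slides, p = 0.0139), and with scan session it was -0.56 (p = 0.00417, exact). With the replicate block, which pairs rats of the same number and leaves out control 7, it was -0.52 with an exact p of 0.0625.

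Markers of skeletal muscle, a tissue that lies against the thyroid, moved with Bcl2. Of 8 listed muscle markers 7 were tested (Myh2 was not), and all 7 means were lower in the KI-treated group, 1 of them, Actn3, at an unadjusted p below 0.05 (difference -1.73 ± 0.66). Summed as linear signals and given as log2, their level ranged from 1.70 to 5.86 in the KI-treated group and from 4.04 to 7.13 in controls. Within groups, the mean muscle level correlated with Bcl2 at Pearson r = 0.66 (permutation p = 0.0304) and Spearman rho = 0.57 (permutation p = 0.0923) over the 13 rats. Among 10 marker lists set against Bcl2 the adjusted values were 0.304 and 0.533. Without control 5 and KI 4, the rats at the ends of the muscle range, r was 0.42, so the relation rests in part on them. The difference in Bcl2 was -0.47 without KI 4 (exact p = 0.00253) and -0.52 without control 5 (exact p = 0.00433). The part of muscle in the Bcl2 difference was not tested.

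**Figure D2:**
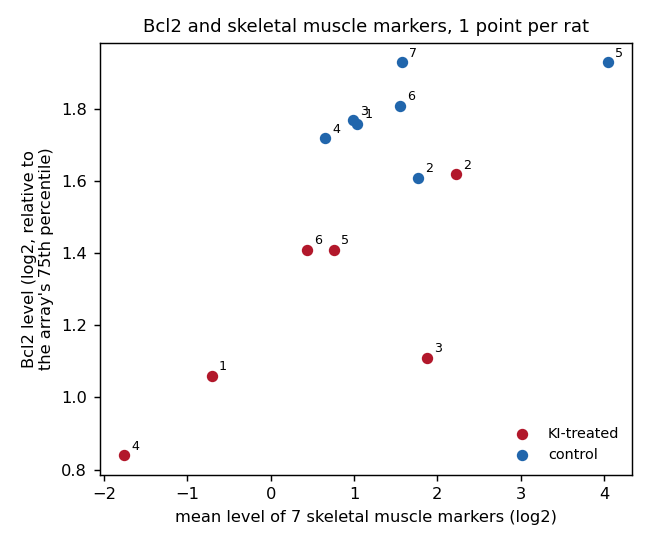
Bcl2 level of each rat (vertical axis, log2, relative to the array's 75th percentile) against the mean level of 7 skeletal muscle markers (horizontal axis, log2). Numbers are the rats of the KI-treated group (red) and the control group (blue). KI-treated rats 2, 3 and 5 had muscle levels within the control range (2.22, 1.87 and 0.76). Their Bcl2 levels were 1.62, 1.11 and 1.41.

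The 5 named genes whose levels followed Bcl2 most closely within groups were Kcnt1 (r = 0.84), Prkab2 (0.82), Cav3 (0.82), Btbd11 (0.81) and Slc4a4 (0.80), over 13 rats. Cav3 is the caveolin of muscle and Slc4a4 a sodium bicarbonate cotransporter. Cav3 and Kcnt1 were dim, with means of -4.15 and -3.31 in the KI-treated group and -3.25 and -3.78 in controls. The 5 genes did not share the group difference of Bcl2 to one extent: Cav3 differed by -0.91 ± 0.73 and Kcnt1 by 0.47 ± 0.31. These genes were selected for their r, which is a description only. Within the family the corresponding r with Bcl2 was -0.62 for Bid, -0.40 for Bax, 0.38 for Bad, 0.28 for Bcl2l1, -0.15 for Bak1, -0.13 for Bcl2l11, 0.05 for Mcl1 and -0.05 for Bbc3.

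The other anti-apoptotic genes were not called lower. Bcl2l1 was read by 1 tested probe, well above background on 12 arrays. Its level had a low of -3.78, a median of -3.27 and a high of -2.57 in the KI-treated group, and -3.64, -3.31 and -2.52 in controls. The groups overlapped fully, with a difference of -0.06 ± 0.21 (adjusted p = 0.874) whose sign changed with the scaling, to 0.02 when the percentile was taken over all spots or after normexp with quantile normalisation. The other 3 Bcl2l1 probes were each well above background on 1 array and were not tested.

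Mcl1, a short-lived anti-apoptotic protein, tended the other way from Bcl2. Its brighter probe read 1.0, 1.17, 1.41, 0.89, 1.30 and 0.80 in the KI-treated rats. The controls read 1.25, 0.87, 0.59, 0.83, 0.69, 0.51 and 0.77. All 6 KI-treated rats were above the control median of 0.77, but control 1 was higher than 4 of them. The difference was 0.31 ± 0.14 (exact p = 0.0437, adjusted p = 0.389). Without control 4 and control 6 it was 0.26 ± 0.14 with an unadjusted p of 0.0976, and it also missed 0.05 with slide as a block (0.29, exact p = 0.0694), with scan session as a block (0.25, exact p = 0.129) and in the replicate block (0.31, exact p = 0.0938). Leaving out any one of 10 of the 13 arrays also lost it, with exact p between 0.0519 and 0.0947. The dimmer Mcl1 probe gave 0.10 ± 0.11 (adjusted p = 0.634), with means of 0.69 ± 0.20 (SD, n = 6) and 0.59 ± 0.11 (SD, n = 7). The brighter probe exceeded the dimmer by 0.24 to 0.52 in KI-treated rats and by 0.00 to 0.46 in controls, so the probes of Mcl1 disagree on the size of the difference.

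The pore formers Bax and Bak1 showed no group difference larger than the spread between rats. The Bax probe at the stop codon read 2.54, 1.41, 2.23, 2.73, 2.46 and 2.64 in the KI-treated group. The controls read 1.55, 2.51, 2.53, 3.36, 2.44, 3.15 and 2.47. One rat of each group, KI 2 and control 1, was low, and control 4 and control 6 were high. The downstream Bax probe repeated this rat by rat, reading 1.05 in KI 2 and 1.34 in control 1, and the probes differed by between -0.23 and 0.36. In the other 11 rats the Bax level ran from 2.23 to 3.36 on the first probe and from 2.20 to 3.17 on the second, so that gaps of 0.67 and 0.86 separated them from the low pair. These rats sat on different slides and in different scan sessions, and 3.86% of the 25650 probes with values on every array also had both of them below all others. The group differences were -0.24 ± 0.27 (adjusted p = 0.651) and -0.26 ± 0.30 (adjusted p = 0.656). Without control 4 and control 6 they were 0.03 ± 0.25 and -0.04 ± 0.32.

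**Figure D3:**
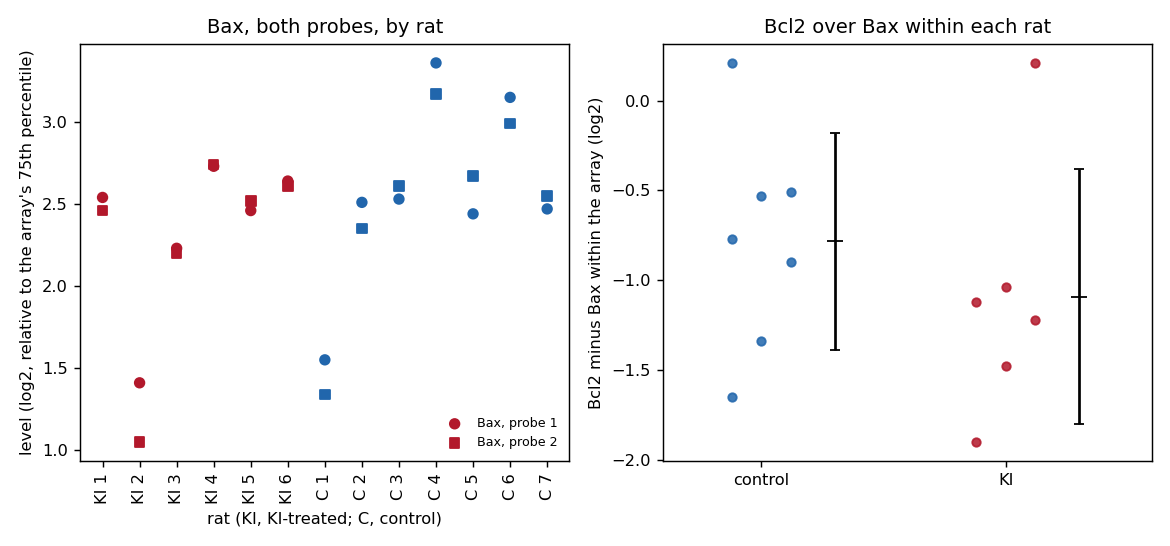
Left, level of Bax by rat on both probes (circles, probe at the stop codon; squares, downstream probe; log2, relative to the array's 75th percentile), KI-treated rats in red and control rats in blue. Right, Bcl2 minus Bax within each array (log2), with mean ± SD. KI 2 and control 1 are low on both Bax probes and both have a Bcl2 over Bax value of 0.21.

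Bak1 was the most even member in the KI-treated group, with a low of 2.02, a median of 2.07 and a high of 2.26. In controls its lowest, median and highest levels were 1.67, 2.18 and 2.37. The difference was 0.07 ± 0.13 (adjusted p = 0.782) and became -0.03 with slide and -0.02 with scan session as a block.

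Among the BH3-only genes, Bid, which links death receptors to the mitochondrion, had the largest positive difference. It was well above background on only 6 arrays, 4 KI-treated and 2 control arrays, and so just passed the filter. It read -3.05, -4.44, -4.21, -3.71, -3.99 and -4.14 in KI-treated rats and -4.41, -3.88, -4.14, -4.89, -5.41, -4.82 and -4.96 in controls. All 6 KI-treated rats lay above the control median of -4.82, with overlap from controls 1, 2 and 3. The difference was 0.72 ± 0.26 (exact p = 0.028, adjusted p = 0.358), and it was positive on all 5 slides (0.29 to 1.06). It missed 0.05 with slide as a block (0.58, exact p = 0.0833) and in the replicate block (0.67, exact p = 0.125). Without control 4 and control 6 it was 0.64 ± 0.30 with an unadjusted p of 0.0568. The difference depended on how background was handled, being 0.02 after normexp with percentile scaling, 0.22 after normexp with quantile normalisation and 0.27 in the deposited values. The highest Bid reading came from KI 1, the rat with a mean lymphocyte marker level of 1.50 against -3.42 to -2.53 in the other 12. Of 10 lymphocyte markers 4 were tested, Cd3e and Cd2 being among those below the filter. The tested markers, summed as linear signals and given as log2, ranged from -0.66 to 4.53 in the KI-treated group and from -0.31 to 0.04 in controls. Without KI 1 the Bid difference was 0.55 (exact p = 0.0669), and without KI 4 or any one of controls 4 to 7 its exact p also rose to between 0.053 and 0.0541. The Bcl2 difference without KI 1 was -0.51 (exact p = 0.00253). The part of lymphocytes in either difference was not tested.

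Bad, a partner of Bcl2 and Bcl2l1, was read by 3 probes that did not move together. The brightest had a difference of -0.10 ± 0.14, which was 0.01 in the deposited values. The second, whose transcript accession did not lead to a current symbol, had -0.21 ± 0.14 (adjusted p = 0.493). The third had 0.22 ± 0.14 (adjusted p = 0.468). On control 4 and control 6 the second probe was at its highest (1.10 and 0.92) and the third at its lowest (-1.54 and -1.08). Without these arrays the 3 differences were 0.01 ± 0.13, -0.06 ± 0.11 and 0.06 ± 0.08.

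Bbc3, a p53 target, ranged from 1.37 to 2.77 (median 2.36) in the KI-treated group and from 1.39 to 3.79 (median 2.43) in controls. Its difference of -0.31 ± 0.32 (adjusted p = 0.615) was 0.02 ± 0.27 without control 4 and control 6, which held the highest readings, 3.79 and 2.90. The main probe of Bcl2l11 ranged from 0.98 to 1.55 and from 1.06 to 1.76, with a difference of -0.08 ± 0.14 that became 0.07 ± 0.10 without the same arrays. The dim Bcl2l11 probe, well above background on 7 arrays, gave 0.07 ± 0.25, and 0.23 ± 0.20 without control 4 and control 6. The second dim probe, above background on 4, was not tested.

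**Figure D4:**
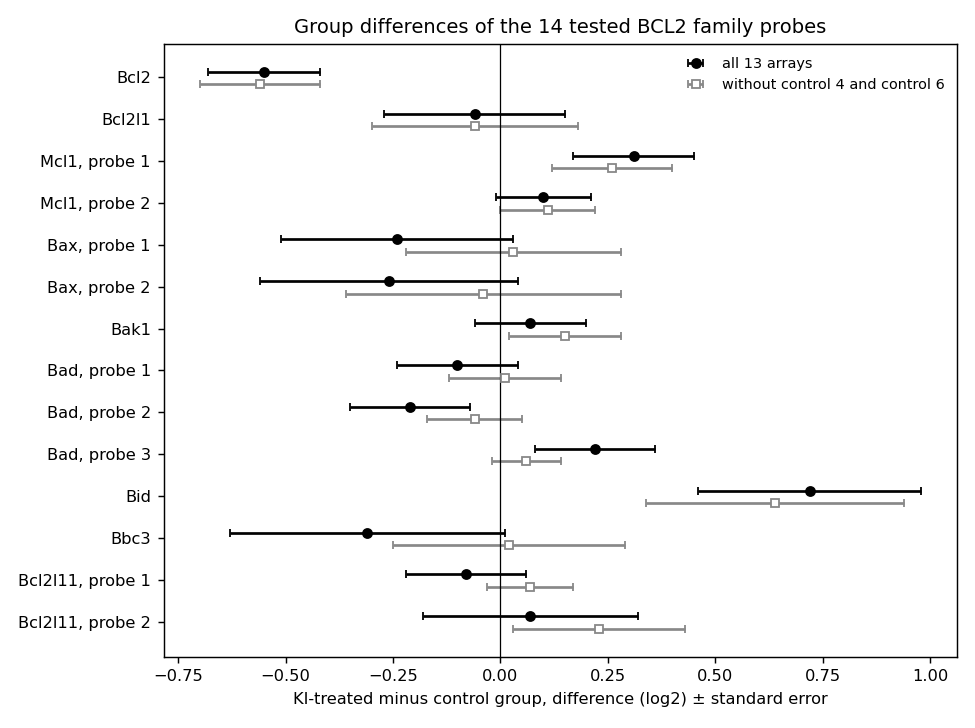
Difference between the KI-treated and control groups (log2) with its standard error for the 14 tested BCL2 family probes, over all 13 arrays (filled circles) and without control 4 and control 6 (open squares). Bcl2 stayed at -0.55 and -0.56, while Bax, Bbc3 and Bad moved to values near 0.

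Apoptosis depends on the proportion of the family's proteins. As an RNA measure only, each anti-apoptotic gene was divided by each pro-apoptotic gene within the rat. The proteins were not measured here. Pmaip1 could not be used, which left 18 of the 21 ratios. Bcl2 over Bax, the ratio most often quoted, was -1.48, 0.21, -1.12, -1.90, -1.04 and -1.22 (log2) in the KI-treated rats. In controls it was 0.21, -0.90, -0.77, -1.65, -0.51, -1.34 and -0.53. KI 2 and control 1, the rats low in Bax, shared the highest value, and 5 of 6 KI-treated rats lay below the control median. The difference was -0.31 ± 0.36 (95% interval -1.10 to 0.48, exact p = 0.41). It was -0.59 without control 4 and control 6 (exact p = 0.145) and -0.57 without KI 2 (exact p = 0.0884). A lower Bcl2 over Bax ratio was thus not detected, although an interval this wide holds the Bcl2 difference itself.

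Of the 18 ratios, 6 passed an exact p of 0.05. Bcl2 was lower relative to all 6 pro-apoptotic genes (differences of -1.27 to -0.23) and 4 of these passed: over Bad (-0.45 ± 0.14, exact p = 0.00466), Bid (-1.27 ± 0.37, exact p = 0.00583), Bak1 (-0.62 ± 0.18, exact p = 0.00699) and Bcl2l11 (-0.47 ± 0.19, exact p = 0.0251). For each of these 4 ratios all 6 KI-treated rats lay below the control median. The same was seen for Mcl1 over Bid, which did not pass (exact p = 0.219). Set against every other tested probe, however, the ratio of Bcl2 passed for 54.8%, so the pro-apoptotic genes are not set apart as denominators. The same 4 passed without control 4 and control 6, with exact p between 0.00216 and 0.0216. Of the 18 ratios, however, 3 passed with slide as a block, 2 in the replicate block, and 3 without KI 4 or without control 7. The Bid probe in the denominator was near background, and the Bcl2 over Bid difference shrank to -0.52 after normexp with percentile scaling (exact p = 0.0286), -0.69 after normexp with quantile normalisation and -0.73 in the deposited values.

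Bcl2l1 passed with 1 of 6 ratios, over Bid (-0.79 ± 0.35, exact p = 0.049), against 2.65% of all tested probes. This ratio rests on the same dim Bid probe, well above background on 2 of 7 control arrays, and it missed 0.05 after quantile normalisation (-0.80, exact p = 0.0519), after normexp with percentile scaling (-0.17, exact p = 0.224) or with quantile normalisation (-0.20, exact p = 0.137) and in the deposited values (-0.32, exact p = 0.11). Mcl1 passed with 1 of 6, over Bad (0.40 ± 0.17, exact p = 0.0338), against 32% of all tested probes. Without control 4 and control 6 neither gene had a ratio that passed (0 of 6 each). The mean of the anti-apoptotic genes minus the mean of the pro-apoptotic genes was -1.37 ± 0.34 (SD, n = 6) and -1.26 ± 0.35 (SD, n = 7), a difference of -0.11 that lies within 1 SD of either group and was -0.27 without control 4 and control 6. The lower Bcl2 and the higher brighter probe of Mcl1 entered this mean with opposite signs.

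**Figure D5:**
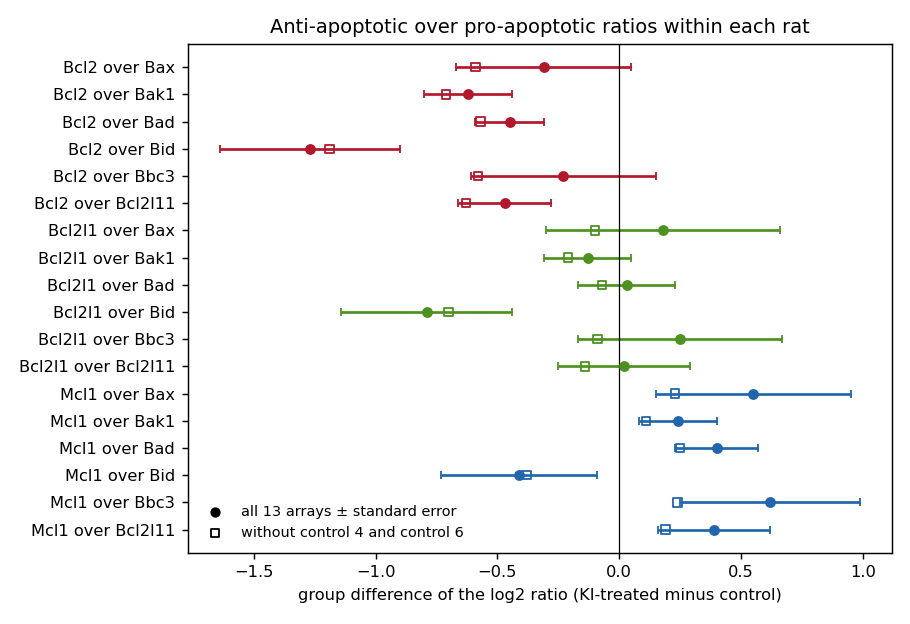
Group difference (KI-treated minus control) of 18 anti-apoptotic over pro-apoptotic log2 ratios taken within each rat, with standard errors over 13 arrays (filled circles) and the values without control 4 and control 6 (open squares). Ratios of Bcl2 (red) are all below 0 and those of Mcl1 (blue) above 0 except over Bid.

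The other members of the family were looked at as a list of 16 genes, of which 14 were tested with 20 probes. None passed the adjusted threshold (lowest adjusted p = 0.358). At an unadjusted p below 0.05, 2 of the 20 probes were higher and 0 lower, no larger a share than the 12.7% of all tested probes called in either direction, and the median difference was -0.09. Bcl2l13, a family member of the mitochondrial membrane that acts in mitophagy, was at 0.33 to 0.68 in the KI-treated group and -0.12 to 0.52 in controls. Its difference was 0.30 ± 0.11, and 0.23 ± 0.09 without control 4 and control 6. Bnip3, a mitophagy receptor, was higher on its dimmer probe (0.63 ± 0.23) and not on its brighter one (-0.24 ± 0.19), and without those arrays these were 0.31 ± 0.13 and 0.01 ± 0.09. The anti-apoptotic Bcl2l2 had differences of -0.23 ± 0.14 and -0.38 ± 0.34, which were -0.10 ± 0.12 and -0.56 ± 0.37 without control 4 and control 6. Bok, a Bax-like effector, had one of -0.45 ± 0.30 that shrank to -0.08 ± 0.20 without the same arrays.

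Binding partners and downstream mitochondrial factors formed a second list of 18 genes, all tested, with 24 probes. No probe passed the adjusted threshold (lowest adjusted p = 0.353), 2 of the 24 were higher and 0 lower at an unadjusted p below 0.05, again under the 12.7% of all tested probes, and the median difference was 0.03. Becn1 (Beclin 1), the autophagy protein that Bcl2 binds, was at 1.05 to 1.32 in the KI-treated group and 0.37 to 1.18 in controls. It differed by 0.38 ± 0.13, and by 0.25 ± 0.09 without control 4 and control 6. Aifm1, a flavoprotein of the mitochondrial intermembrane space, differed by 0.50 ± 0.14 on its dimmer probe and by -0.10 ± 0.17 on its brighter one, and without those arrays by 0.34 ± 0.11 and 0.12 ± 0.10. Cycs, encoding cytochrome c, had differences of -0.17 ± 0.19 and 0.10 ± 0.17, and Diablo, the antagonist of inhibitors of apoptosis, one of -0.17 ± 0.11. Without control 4 and control 6 these were -0.01 ± 0.19 and 0.22 ± 0.18 for Cycs, and -0.04 ± 0.07 for Diablo.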

How the data were processed

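Thyroid RNA of 13 rats was hybridised to one-colour Agilent arrays. The authors deposited scanner files with the background-subtracted spot intensity given by Agilent Feature Extraction (version 10.7.3.1), not normalized between arrays, and log2 values of the same arrays, which the authors deposited with no method of normalization given in the sources used here. From the scanner files, control spots and spots with an outlier flag were left out, spots of a probe were averaged as log2 of the processed signal, and the 75th percentile over the 45598 probes of the array was subtracted. The 25717 probes that 6 or more arrays showed well above background were tested with limma (version 3.58.1, R 4.3.3) and Benjamini-Hochberg adjustment at 0.05, and 67 of them lacked a value on some array. Single values and ratios, taken between the brightest tested probe of each gene, were tested by exact two-sided permutation in Python 3.11.15 with numpy 2.4.6. Correlations used values centred within groups and 100000 permutations within groups. The limma test was tested on simulated data.

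The members and gene lists were chosen with earlier results of these data known. Named genes are all members with every probe, the other family members and partners of the lists, and the 5 named genes most like Bcl2. The alternatives were quantile normalization, normexp background correction (offset 50), the deposited log2 values, other filters, slide, scan session or replicate number as a block, outlier spots kept, array weights, the methods' t-test and leaving out each array. A percentile over all gene spots and the fit without control 4 and control 6 were added after seeing the data. The number of arrays limits the precision.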

Additional observations from a re-analysis of the deposited data

Results flagged for a closer look

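Among 32 sets of 6 or 7 values (14 tested probes, the Bcl2 over Bax ratio and the class mean, in each group), 2 held a rat whose distance to its nearest neighbour took up an unusual part of the range of its group. Chance gives about 1 in 20. On the downstream Bax probe, KI 2 read 1.05 against 2.20 for the next rat of its group, a gap of 0.68 of the range. Bak1 read 2.26 in KI 2 against 2.11 for the next rat, a gap of 0.63 of the range, in a group whose levels otherwise lay within 2.02 to 2.11.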

How the results depend on the processing

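The Bcl2 difference kept its sign under every alternative, from -0.62 to -0.46, and its p stayed below 0.05 (exact, or limma's with array weights and that of the methods' t-test) except in the replicate block, where the difference was -0.52 with an exact p of 0.0625, the smallest possible there being 0.0312. Same-numbered rats did not deviate together (r between -0.11 and 0.07 over tested probes), so the numbers were not taken to pair the rats, and the replicate block gave 2356 unadjusted calls over all probes. Leaving out each array gave -0.62 to -0.47 for Bcl2, -0.57 to -0.14 for Bcl2 over Bax and -0.21 to -0.01 for the class mean. It gave 3 to 6 ratios past an exact p of 0.05, the 3 without KI 4 or control 7, and 2 to 4 family probes. Over all probes it gave 0 to 1 adjusted calls (1 without control 1 and 1 without control 2) and 2364 to 4598 unadjusted calls. Array weights gave 55 adjusted calls over all probes, and scan session as a block 5120 unadjusted calls. The family probes past an unadjusted p of 0.05 numbered 1 with slide as a block and 1 without control 4 and control 6. The ratios past an exact p of 0.05 numbered 3 with slide as a block and 2 in the replicate block. The class mean difference was 0.01 where only probes above background on all 13 arrays were used, which leaves out Bcl2l1 and Bid. Differences that changed sign were those of Bcl2l1 (0.02 by normexp with quantile, percentile over all spots or array weights, -0.21 to 0.05 leaving out each array), Bax (0.03), Bbc3 (0.02) and Bcl2l11 (0.07) without control 4 and control 6, Bak1 (-0.03 by slide, -0.02 by scan session), Bad (0.01 in the deposited values, 0.05 with array weights, 0.01 without control 4 and control 6) and Bcl2l11 (0.05 with array weights). None of these passed 0.05. The Mcl1 difference missed an exact p of 0.05 in 14 alternatives and that of Bid in 10. The cause was not tested. Signal near background limits Bid, Pmaip1, most Bcl2l1 probes and the dim Bcl2l11 probe.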

Other observations

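The named genes whose level ran most strongly against Bcl2 within groups were Zfp367 (r = -0.88), Tubb5 (-0.87), Cenpk (-0.85), Chaf1b (-0.81) and Esco2 (-0.79) over the 13 rats, of which Cenpk, Chaf1b and Esco2 encode a kinetochore protein, a chromatin assembly factor and a cohesin acetyltransferase used in dividing cells. They were selected for their r after its values were seen, so the r is a description. Their group differences were -0.01 ± 0.24, 0.34 ± 0.13, -0.06 ± 0.24, -0.14 ± 0.32 and 0.31 ± 0.40.

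Other marker lists gave mean differences of -0.07 (macrophage), -0.16 (adipocyte), 0.17 (blood), 0.30 (parathyroid), 0.05 (C cell), -0.12 (endothelium) and -0.06 (fibroblast) between the groups. Such means can hide members of opposite sign. Gcm2 differed by 1.09 ± 0.34 and Pth by -0.24 ± 0.13 (parathyroid). Hbb differed by 0.57 ± 0.21 and Hba1 by -0.19 ± 0.19 (blood), and Chga by 0.58 ± 0.25 and Ret by -0.40 ± 0.22 (C cell). In the follicular list thyroglobulin (Tg) differed by -0.26 ± 0.12, with an adjusted p in limma of 0.39.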
